A study of Mus musculus with 16 samples.

Results

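Gene expression in the cervical spinal cord of Gaa-/- mice was compared with that of Gaa+/+ mice at 16 months of age, with 4 arrays per genotype. These 8 arrays were chosen by their titles, out of 16 in all, and the other 8 hold the same genotypes at 6 months. The Gaa-/- line came from Taconic and was outbred to 129SVE, and the Gaa+/+ controls were mice of the 129SVE strain. Ages in the husbandry text span 12 to 16 months for the aged mice and 6 to 8 months for the adults, so animals of 1 group may have differed in age. All mice were killed with beuthansia, and RNA came from whole tissue of segments C3 to C5, which hold the phrenic motor neurons of the diaphragm. The study asked whether lack of the enzyme throughout the body turns on signalling linked to neuropathology. The labels give 4 mice per group, and with so few arrays the precision is limited by their number.

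Gaa encodes acid alpha-glucosidase, the enzyme that releases glucose from glycogen inside lysosomes, and its inherited loss causes Pompe disease. Lysosomes are acidic organelles in which proteases, glycosidases, sulfatases and lipases break down material delivered by endocytosis, phagocytosis and autophagy. Many of their genes share a promoter element that is bound by transcription factors of the TFEB and MITF family. Microglia, the resident macrophages of the cord, are rich in lysosomes and in their surveying state express receptors such as P2ry12 and Cx3cr1. On meeting lipid or damaged tissue they can take up a programme that depends on the receptor Trem2 and its adapter Tyrobp and includes Gpnmb, Cst7, Clec7a and Itgax.

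The values are log2 expression per gene as deposited. Array medians at 16 months lay between 5.397 and 5.447, and arrays of 1 group correlated at 0.9925 or above. The tissue label was checked against markers: Snap25, a synaptic gene, read 11.98 to 12.02 and the myelin gene Mbp 10.38 to 10.61 in the 8 arrays. Xist, transcribed from the inactive X chromosome of females, read 9.93 to 10.19 in all 8. Markers of tissue around the cord differed among the arrays, and the source of this was not tested. Marker values were expressed relative to the gene's own mean of the 8 arrays and then averaged over a list. The 19 muscle markers averaged 1.761 in replicate 3 of Gaa+/+ and 0.717 in replicate 4 of Gaa-/-, against -0.559 to -0.22 in the other 6 arrays. The 17 meningeal markers averaged -0.765 in replicate 1 of Gaa+/+ and -0.734 in replicate 3 of Gaa-/-, against -0.154 to 0.473 in the others.

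Gaa had the largest fall of the genes named. It read 9.48, 9.51, 9.60 and 9.46 in the 4 Gaa+/+ arrays and 6.41, 6.30, 6.41 and 6.2 in the 4 Gaa-/- arrays. The difference was -3.18 ± 0.07 (SE, log2 scale, n = 4 per group), or 9.06-fold lower, with an adjusted p of 4.7e-13 by limma. All 4 Gaa-/- arrays lay far below all 4 Gaa+/+ arrays. The genes beside Gaa on its chromosome were examined because a deleted line can keep alleles of another strain there. The 10 measured neighbours on each side had differences of -0.22 to 0.13, and 0 of these 20 passed the threshold. Rbfox3, a neuronal splicing factor gene, had the smallest adjusted p among them, 0.298, with a change of -0.12.

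Across the cord, genes of microglia, phagocytosis and the lysosome were higher in Gaa-/- mice, and few genes were lower. Gpnmb, a membrane glycoprotein gene of lipid-laden phagocytes, was 5.29-fold higher, the inhibitory receptor gene Lilrb4a 4.16-fold and the chemokine gene Cxcl13 3.4-fold. Of 23185 genes tested, 454 passed an adjusted p of 0.05, which is 1.96%. The 399 higher genes made up 1.72% of all genes and the 55 lower ones 0.237%. Changes in the higher genes had a median of 0.512 and those in the lower genes of -0.339, while the median over all genes was -0.00205. A fold above 2 was reached by 27 higher and 2 lower genes. The Gaa-/- arrays lay wholly above the Gaa+/+ arrays in 392 of the 399 higher genes, against 5.33% of all genes, and wholly below in 53 of the 55 lower genes, against 3.73%. Together these are 445 of 454 called genes, against 9.06% of all genes. The calls were made on these same arrays, so this separation follows largely from the choice of genes and lends them no further weight. The called genes numbered 294 when Gaa-/- replicate 1 was omitted and 301 when Gaa+/+ replicate 2 or replicate 3 was. The lower genes numbered 19 to 33 when Gaa-/- replicate 1 or 2, or Gaa+/+ replicate 1, 2 or 3, was omitted. Of 151 called genes that met the naming rule or were added to it, 52 lost the call when some 1 of the 8 arrays was omitted and 99 kept it throughout. Those 52 had adjusted p of 0.013 or above, and the 99 had 0.0108 or below.

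**Figure D1:**
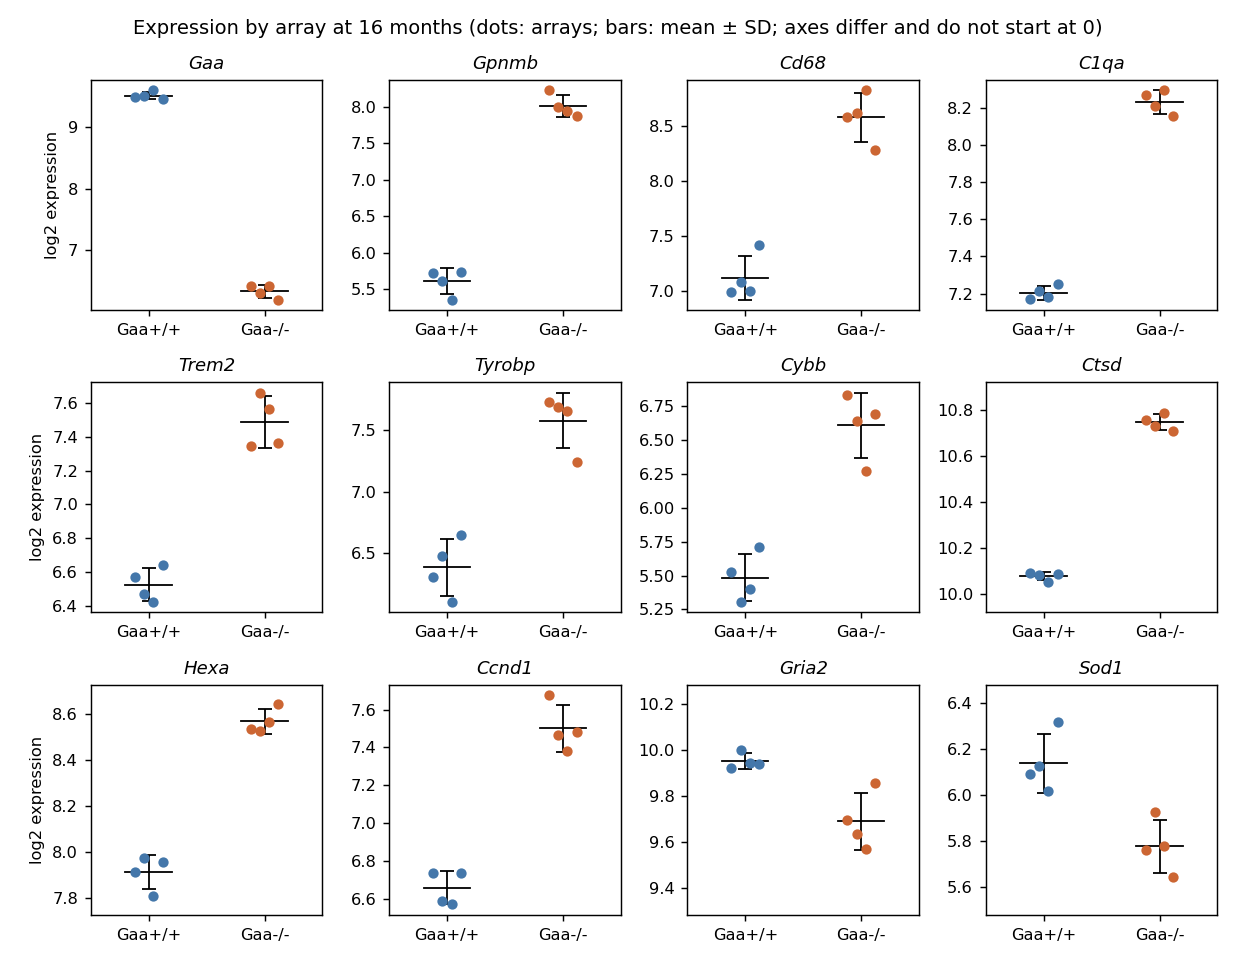
Log2 expression of 12 genes in each 16-month array, with Gaa+/+ in blue, Gaa-/- in orange, and the mean ± SD of 4 arrays as a bar; axes differ and do not start at 0. The 4 arrays of each genotype are separate in every panel, with changes of -3.18 for Gaa, 2.40 for Gpnmb and 0.67 for Ctsd; Gaa, Gria2 and Sod1 are the 3 genes shown that were lower in Gaa-/- mice.

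The lysosomal genes were examined by role. Counts of called genes in this and later lists stand against 1.72% of all genes called higher and 0.237% called lower. The lists were written with earlier results of these data known, so the shares describe the lists and test nothing. Among proteases, 9 of 17 measured genes rose (52.9%) and 0 fell, with a median change of 0.402 over the list and a positive sign in all 17. Ctsd encodes cathepsin D, the main aspartic protease of the lysosome. It read 10.09, 10.08, 10.05 and 10.09 in Gaa+/+ and 10.76, 10.73, 10.79 and 10.71 in Gaa-/- arrays, a change of 0.67 ± 0.05 (limma adjusted p = 4.9e-06). Its arrays were tightly grouped and did not overlap. Ctsz rose by 0.71 ± 0.08, and Ctss, the cathepsin that trims the invariant chain in antigen-presenting cells, by 0.69 ± 0.06. Smaller rises were those of the peptidase genes Dpp7 (0.45 ± 0.07) and Scpep1 (0.41 ± 0.09) and the cathepsins Ctsl (0.40 ± 0.06), Ctsb (0.35 ± 0.05) and Ctsa (0.34 ± 0.06), the last being the protective protein of the galactosidase and sialidase complex. Cpq, a secreted carboxypeptidase gene, made up the 9 with 0.45 ± 0.11, and its call was lost when any 1 of the 8 arrays was omitted. Ctsh (0.65, adjusted p = 0.0665), Ctsc (0.51, adjusted p = 0.0575) and Tpp1 (0.30, adjusted p = 0.061) missed the threshold.

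Glycosidases, which remove sugars from glycans and glycolipids, gave 10 higher and 0 lower genes of 18 measured, with a median of 0.285. Hexa, the alpha subunit of beta-hexosaminidase, read 7.91, 7.97, 7.81 and 7.96 in Gaa+/+ and 8.53, 8.53, 8.56 and 8.64 in Gaa-/- arrays. Its change was 0.66 ± 0.06 (limma adjusted p = 2.56e-05), and every Gaa-/- array was above every Gaa+/+ array. Gusb, encoding beta-glucuronidase, rose by 0.66 ± 0.06, Man2b1, encoding an alpha-mannosidase, by 0.61 ± 0.07 and the heparanase gene Hpse by 0.68 ± 0.11. Galc, which cleaves galactosylceramide of myelin, rose by 0.35 ± 0.06. The other called genes were Naglu (0.44), Fuca1 (0.32), Aga (0.29), Man2b2 (0.29) and Manba (0.26). The galactosidase Glb1 (0.13) and the sialidase Neu1 (0.09), partners of Ctsa, were not called, and neither were Gla (0.23) and Idua (0.24). This count was 6 when Gaa-/- replicate 1, Gaa-/- replicate 2 or Gaa+/+ replicate 3 was omitted.

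In the remaining lysosomal lists fewer genes were called. Sulfatases and their partners had 3 higher genes of 8: Arsb (0.29), Arsa (0.25) and the sulfatase-activating enzyme gene Sumf1 (0.25). Omitting any array but Gaa+/+ replicate 4 left 0 or 1 of these calls. Lipid breakdown had 3 of 14: Pld4 (0.52 ± 0.10), Npc2, which carries cholesterol within the lysosome (0.43 ± 0.05), and Pla2g15 (0.27 ± 0.06). Npc1, the membrane partner of Npc2, had a difference of 0.00 and the lipase gene Lipa of 0.07. In the membrane and transport list 6 of 26 rose.

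Cd68, a glycoprotein of macrophage lysosomes, had the largest change of that list. It read 6.99, 7.08, 7.0 and 7.41 in Gaa+/+ and 8.58, 8.62, 8.83 and 8.29 in Gaa-/- arrays. It was 2.74-fold higher (1.46 ± 0.14, limma adjusted p = 2.12e-05) and its groups did not overlap. Laptm5, a lysosomal protein gene of blood-forming lineages, rose by 0.78 ± 0.08, the transporter gene Slc15a3 by 0.64 ± 0.14 and the tetraspanin gene Cd63 by 0.53 ± 0.11. The cystine exporter Ctns (0.30 ± 0.06) and the calcium channel Mcoln1 (0.20 ± 0.04) were also called. Lamp1 and Lamp2, abundant membrane proteins of lysosomes in most cells, had changes of 0.11, adjusted p = 0.305, and 0.21, adjusted p = 0.0513, by limma. The membrane and transport count was 2 when Gaa-/- replicate 1, Gaa+/+ replicate 2 or Gaa+/+ replicate 3 was omitted.

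The vacuolar proton pump acidifies the lysosome. Of its 18 measured subunits 3 rose: Atp6v0d2, a variant of macrophages and osteoclasts (0.95 ± 0.20), Atp6v0e (0.28 ± 0.07) and Atp6v0b (0.22 ± 0.04). The widespread variant Atp6v0d1 had a difference of 0.12 and the catalytic subunit Atp6v1a of 0.07, and neither was called. Omitting Gaa-/- replicate 1, Gaa-/- replicate 2 or Gaa+/+ replicate 1 left 1 pump call. Among 25 genes of enzyme sorting and nutrient sensing 2 rose, Rragd (0.31 ± 0.05), a GTPase that signals nutrient state at the lysosome, and Fnip2 (0.39 ± 0.07), a folliculin partner. The transcription factor genes Tfeb (-0.07, adjusted p = 0.629), Tfe3 (0.03, adjusted p = 0.842) and Mitf (-0.04, adjusted p = 0.847) were not called by limma. Their arrays overlapped between genotypes.

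**Figure D2:**
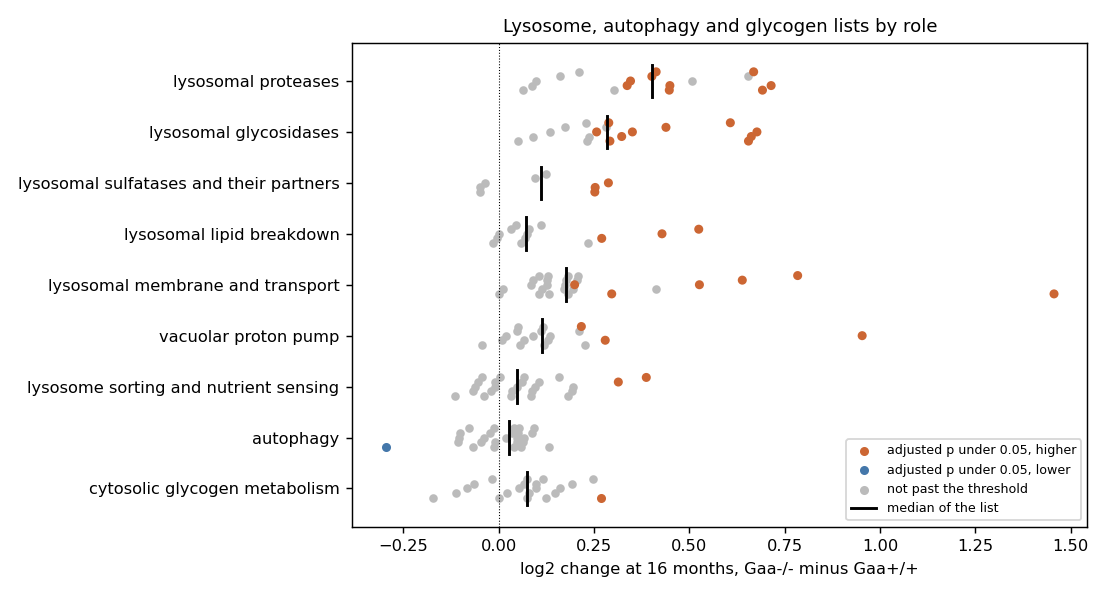
Log2 change at 16 months of each measured gene in 9 lists, with genes past the limma threshold in colour, others in grey and the list median as a black bar. The protease and glycosidase medians (0.402 and 0.285) are the highest of the 9, Cd68 (1.46) is the gene farthest to the right, and Rb1cc1 (-0.30) in the autophagy list is the only gene called lower.

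Promoters of lysosomal genes were searched for the 8-letter element TCACGTGA, which reads the same on both strands and contains the E-box core CACGTG. The window was the 250 bases before the annotated start, in RefSeq promoter sequences of build GRCm38.p6, which matched 17452 of the genes tested. These genes had 21141 promoters, and a gene was counted when any of its promoters held the element. It was present in 1.2% of these genes, in 2.67% (8 of 300) of those called higher and in 0 of 39 of those called lower. In the 6 lists of lysosomal enzymes, membrane proteins and the pump it was present in 9 of 83 genes (10.8%). Of these lists, 5 of 29 called genes (17.2%) and 4 of 54 others (7.41%) held it. The called genes were Ctsd, Dpp7, Ctsa, Mcoln1 and Sumf1, and the others were Gla, Cln3, Cd164 and Atp6v1a. The core CACGTG was present in 7.79% of all genes with a promoter and in 24.1% of those of the 6 lists. A match describes letters in this window and not a bound site. The promoters of the 3 called genes with the smallest p are shown because they place the element beside the change in expression, 5′ to 3′ on the gene's strand with TCACGTGA in capitals. They are those of Ctsd (chr7:142387828-142388077, minus strand), Dpp7 (chr2:25356333-25356582, minus strand) and Ctsa (chr2:164833523-164833772, plus strand). The element begins 99 bases before the start in Ctsd, 74 in Dpp7 and 13 in Ctsa.
Ctsd: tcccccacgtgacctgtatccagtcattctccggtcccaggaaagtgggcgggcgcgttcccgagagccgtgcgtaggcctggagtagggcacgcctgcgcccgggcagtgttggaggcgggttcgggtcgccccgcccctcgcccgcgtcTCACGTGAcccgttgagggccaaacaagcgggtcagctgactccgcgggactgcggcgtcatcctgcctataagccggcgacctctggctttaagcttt
Dpp7: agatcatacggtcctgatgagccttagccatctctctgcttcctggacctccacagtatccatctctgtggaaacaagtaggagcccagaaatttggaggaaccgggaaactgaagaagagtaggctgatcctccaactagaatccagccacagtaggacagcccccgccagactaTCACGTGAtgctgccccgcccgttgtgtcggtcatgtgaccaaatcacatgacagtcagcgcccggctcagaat
Ctsa: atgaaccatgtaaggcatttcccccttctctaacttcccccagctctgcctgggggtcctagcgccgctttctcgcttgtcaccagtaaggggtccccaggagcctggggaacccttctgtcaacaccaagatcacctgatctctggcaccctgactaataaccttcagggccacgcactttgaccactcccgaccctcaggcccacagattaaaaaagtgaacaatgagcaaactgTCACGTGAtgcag

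Receptors and adapters of microglia rose. In the Trem2 and Tyrobp signalling list the largest changes were those of Tyrobp at 2.29-fold and Trem2 at 1.95-fold. In whole tissue, more cells of a type and more RNA per cell cannot be told apart. Tyrobp, the signalling adapter of Trem2, read 6.30, 6.48, 6.10 and 6.65 in Gaa+/+ and 7.73, 7.69, 7.66 and 7.24 in Gaa-/- arrays (1.2 ± 0.13, limma adjusted p = 8.08e-05). Trem2, which binds lipids and apolipoproteins, read 6.57, 6.47, 6.42 and 6.64 against 7.35, 7.66, 7.57 and 7.36 (0.96 ± 0.09, adjusted p = 3.72e-05). Neither gene's groups overlapped, and Gaa-/- replicate 4 had the lowest Tyrobp value of its group. In that list 8 of 18 genes rose. The others were the phosphatases Ptprc (0.83 ± 0.14) and Ptpn6 (0.59 ± 0.07), the lipid phosphatase Inpp5d (0.60 ± 0.09), the exchange factor Vav1 (0.65 ± 0.11) and the adapters Blnk (0.38 ± 0.09) and Pik3ap1 (0.31 ± 0.07). The kinase Syk, which Tyrobp recruits, had a difference of 0.05 (adjusted p = 0.846).

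Receptors for immunoglobulin and other ligands were higher too. Of 7 Fc receptor genes 5 rose, with a median of 0.576. Fcer1g, the shared signalling chain, rose by 0.82 ± 0.11, the inhibitory receptor Fcgr2b by 0.92 ± 0.11 and the activating receptors Fcgr1 and Fcgr3 by 0.58 ± 0.12 and 0.52 ± 0.07. Fcrls, a microglial receptor-like gene, rose by 0.97 ± 0.15. Among 27 paired myeloid surface receptors 6 rose. Lilrb4a read 5.62, 5.84, 5.26 and 6.26 in Gaa+/+ and 8.04, 7.85, 7.75 and 7.57 in Gaa-/- arrays (2.06 ± 0.28, limma adjusted p = 0.00062). Its groups did not overlap, but it has a near-identical copy whose signal may be mixed with it. Clec7a, a beta-glucan receptor gene, rose by 1.09 ± 0.14, Cd33 by 0.77 ± 0.08, Cd84 by 0.76 ± 0.16, Siglech by 0.41 ± 0.10 and the receptor tyrosine kinase gene Axl by 0.32 ± 0.06. Its relative Mertk had a difference of 0.20 (adjusted p = 0.418).

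Complement marks material for removal by phagocytes. Of 25 complement genes 9 rose, and the count was also 9 when any 1 of the 8 arrays was omitted. The chains of C1q, the trigger of the classical pathway, all rose. C1qa read 7.17, 7.21, 7.18 and 7.25 in Gaa+/+ and 8.27, 8.21, 8.29 and 8.15 in Gaa-/- arrays (1.02 ± 0.08, limma adjusted p = 4.03e-06), so the groups did not overlap. C1qb rose by 1.01 ± 0.12 and C1qc by 1.08 ± 0.09. Next in the cascade, C4b rose by 1.22 ± 0.17, although the array may not separate it from its close copy C4a. C3ar1, the receptor for the C3a fragment, rose by 1.24 ± 0.10. The integrin chains of complement receptors, Itgam (0.67), Itgax (0.77) and Itgb2 (0.71), were called as well. Masp1, a protease gene of the lectin pathway, rose by 0.43 ± 0.08. The alternative pathway gene Cfb (-0.10) and the C5a receptor gene C5ar1 (-0.09) were not called.

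The phagocyte oxidase produces superoxide. Of 5 measured genes 4 rose, with a median of 0.73. Cybb, its catalytic membrane subunit, read 5.52, 5.31, 5.40 and 5.71 in Gaa+/+ and 6.83, 6.64, 6.27 and 6.69 in Gaa-/- arrays (1.13 ± 0.14, limma adjusted p = 0.000376). The groups did not overlap, and Gaa-/- replicate 3 was the lowest of its group. Cyba, the partner that stabilises Cybb, rose by 0.77 ± 0.12, the cytosolic organiser Ncf1 by 0.49 ± 0.09 and the proton channel Hvcn1, which balances the oxidase's charge, by 0.73 ± 0.10. Ncf4 had a difference of 0.38 (adjusted p = 0.0787).

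Pattern recognition genes gave 9 higher calls of 25, with a median of 0.315. They included the nucleic acid sensors Tlr3 (0.73 ± 0.08), Tlr7 (0.86 ± 0.18) and Tlr13 (0.84 ± 0.14), with Unc93b1, which carries such receptors to endosomes (0.57 ± 0.08). Cd180, a relative of Tlr4, rose by 1.08 ± 0.21 together with its partner Ly86 (0.65 ± 0.09). Tlr2 (0.56 ± 0.11), the Tlr4 cofactor Ly96 (0.52 ± 0.12) and the inflammasome protease gene Casp1 (0.47 ± 0.11) made up the rest. Tlr4 itself (0.70, adjusted p = 0.157), Nlrp3 (-0.05) and Il1b, whose product Casp1 cleaves (0.19, adjusted p = 0.666), were not called. This count was 5 when Gaa-/- replicate 2 was omitted.

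Of 21 chemokine ligand genes 3 rose (14.3%), and the count was 5 when Gaa-/- replicate 3 was omitted. Cxcl13, which attracts B cells, read 6.2, 5.99, 6.12 and 6.31 in Gaa+/+ and 8.00, 7.92, 7.97 and 7.78 in Gaa-/- arrays (1.77 ± 0.21, limma adjusted p = 0.000169), with a wide gap between groups. Of 21 lymphocyte markers 0 were called, against 1.96% of all genes. Of these markers 12 lay below the 25th percentile of all genes in mean value. So short and dim a list can hold 0 calls at that share, which does not show that lymphocytes were unchanged. Ccl3, a macrophage chemokine gene, read 5.23, 5.51, 4.97 and 5.51 against 6.79, 6.56, 6.65 and 6.17 (1.24 ± 0.17, adjusted p = 0.00054). Cxcl14 rose by 0.28 ± 0.05, whereas Ccl4 (0.07) and the monocyte attractant Ccl2 (-0.15) were not called. Of 14 chemokine receptors Cxcr4 (0.53 ± 0.10) and the microglial fractalkine receptor Cx3cr1 (0.43 ± 0.08) rose.

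Among cytokines and growth factors Hgf was the only one of 19 genes called (0.65 ± 0.12). Tnf (0.07) and Il6 (-0.09) were not, and the count was 3 when Gaa+/+ replicate 4 was omitted. Met, the gene of the Hgf receptor, rose by 0.78 ± 0.08 and was looked up after values were seen. Among 24 cytokine receptors 5 rose: Osmr, for oncostatin M (0.93 ± 0.13), Csf3r (0.67 ± 0.10), Tnfrsf1a (0.63 ± 0.13), Il10rb (0.43 ± 0.10) and Csf1r, on which microglia depend (0.40 ± 0.07). The receptor count was 3 when Gaa-/- replicate 1, Gaa+/+ replicate 2 or Gaa+/+ replicate 3 was omitted.

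Of 11 class I genes, B2m, the light chain of class I molecules, rose by 0.61 ± 0.08 and H2-D1, a heavy chain with close copies, by 0.70 ± 0.07. These made up 18.2% of the list, against 1.96% of all genes, and the count was 4 when Gaa-/- replicate 4 was omitted. Of 12 class II genes, Ifi30, a lysosomal thiol reductase, rose by 0.62 ± 0.14 and H2-DMb1, a peptide loading chain, by 0.43 ± 0.10, or 16.7% of that list. The class II chain genes H2-Aa (0.39, adjusted p = 0.589) and H2-Ab1 (0.18, adjusted p = 0.83) and the invariant chain gene Cd74 (0.28, adjusted p = 0.681) were not called by limma. Omitting Gaa-/- replicate 2 or 3, or Gaa+/+ replicate 1, 2 or 3, left 0 class II calls, and omitting Gaa-/- replicate 1 left 1. Of 28 interferon response genes only Irf9 rose (0.41 ± 0.08), and its adjusted p was 0.0591 when Gaa+/+ replicate 3 and Gaa-/- replicate 4, the arrays with high muscle markers, were omitted together. The interferon count was 2 when Gaa-/- replicate 2 or Gaa+/+ replicate 4 was omitted. Isg15 (0.04) and Mx1 (-0.20) were not called.

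Markers of microglial state were compared as 2 lists. In the damage-associated list 14 of 22 genes rose and 0 fell, with a median of 0.611. Gpnmb read 5.72, 5.62, 5.36 and 5.74 in Gaa+/+ and 8.23, 7.99, 7.95 and 7.87 in Gaa-/- arrays (2.40 ± 0.12, limma adjusted p = 1.35e-08), with a wide gap between groups. Beside Cd68, Tyrobp, Trem2, Clec7a, Itgax, Cd63 and Axl above, the protease inhibitor gene Cst7 rose by 0.99 ± 0.11, Cd52 by 1.08 ± 0.16, the galectin gene Lgals3 by 0.85 ± 0.07 and the tetraspanin gene Cd9 by 0.68 ± 0.09. Fabp5, a fatty acid carrier, rose by 0.46 ± 0.09 and Apoe, the main lipid carrier of the nervous system, by 0.39 ± 0.07. In the homeostatic list 8 of 20 rose and 0 fell, with a median of 0.345. The called genes were Fcrls, the prostaglandin synthase gene Hpgds (0.95 ± 0.10), Aif1 (0.61 ± 0.06), Cx3cr1, Siglech, Csf1r and the nucleotide receptors P2ry13 (0.40 ± 0.09) and P2ry12 (0.33 ± 0.07). Tmem119 (-0.09, adjusted p = 0.577) and the microglial transcription factor gene Sall1 (-0.23, adjusted p = 0.259) were not called. The homeostatic count was 5 when Gaa+/+ replicate 3 was omitted. Averaged over all measured genes, the damage-associated list lay at -0.447 to -0.219 in Gaa+/+ and 0.272 to 0.426 in Gaa-/- arrays, and the homeostatic list at -0.236 to -0.056 and 0.14 to 0.201.

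Myeloid transcription factor genes gave 3 higher calls of 18. Irf8 rose by 0.74 ± 0.09, Spi1, which encodes PU.1, a master regulator of macrophages and microglia, by 0.60 ± 0.10 and Cebpa by 0.40 ± 0.09. The letters GAGGAAGT, a PU.1 type element, were searched on both strands in the 250 bases before the start. Counted by gene as above, they were present in 2.69% of all genes with a promoter. The share was 6.0% (18 of 300) of those called higher and 5.13% (2 of 39) of those called lower. In the complement, Fc receptor and Trem2 lists they were present in 5 of 39 genes (12.8%). Of these, C1qc, Inpp5d and Vav1 were called, and Fcgr4 and Pik3cg were not. The promoters of the 2 called genes with the smallest p are shown for the same reason as above, with the element in capitals. In C1qc it lies on the opposite strand and is printed as its reverse complement. They are those of C1qc (chr4:136892915-136893164, minus strand) and Inpp5d (chr1:87620062-87620311, plus strand), where the element begins 195 and 20 bases before the start.
C1qc: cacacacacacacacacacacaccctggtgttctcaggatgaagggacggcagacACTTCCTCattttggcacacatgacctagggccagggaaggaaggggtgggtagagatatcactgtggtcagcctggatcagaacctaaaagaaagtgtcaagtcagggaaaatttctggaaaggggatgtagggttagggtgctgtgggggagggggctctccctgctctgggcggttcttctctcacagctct
Inpp5d: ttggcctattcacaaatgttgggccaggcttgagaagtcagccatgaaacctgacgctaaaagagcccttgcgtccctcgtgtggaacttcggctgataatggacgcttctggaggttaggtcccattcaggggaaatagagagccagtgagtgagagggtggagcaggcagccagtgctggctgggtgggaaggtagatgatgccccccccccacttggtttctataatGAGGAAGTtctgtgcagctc

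Markers of other myeloid and blood cells were examined beside these results. Over all genes 1.96% were called. Of 11 monocyte genes 0 were called (Ccr2 0.21, Ly6c2 -0.07), and their average was -0.158 to 0.092 in Gaa+/+ and -0.02 to 0.173 in Gaa-/- arrays. In the border-associated macrophage list Ms4a7 was the only call of 12. It read 2.79, 2.90, 3.11 and 3.21 in Gaa+/+ and 5.32, 4.50, 4.33 and 4.31 in Gaa-/- arrays (1.61 ± 0.17, limma adjusted p = 7.19e-05), so a dim signal in Gaa+/+ cords was separated from a higher one. The defining markers Mrc1 (0.07), Cd163 (0.05), Lyve1 (-0.29) and Pf4 (0.02) were not called, and the list averaged -0.304 to 0.021 in Gaa+/+ and -0.018 to 0.258 in Gaa-/- arrays. Of 13 neutrophil markers only Csf3r rose, and the list's averages overlapped, at -0.066 to 0.048 and -0.043 to 0.083. The 4 measured red cell genes had 0 calls and averaged 0.728 in Gaa-/- replicate 3, -0.771 to -0.476 in the other Gaa-/- arrays and -0.041 to 0.45 in Gaa+/+ arrays. Lists of this length can hold 0 calls at the share of all genes, so 0 calls do not show that a cell type was unchanged. The part of these cells in the results was not tested.

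**Figure D3:**
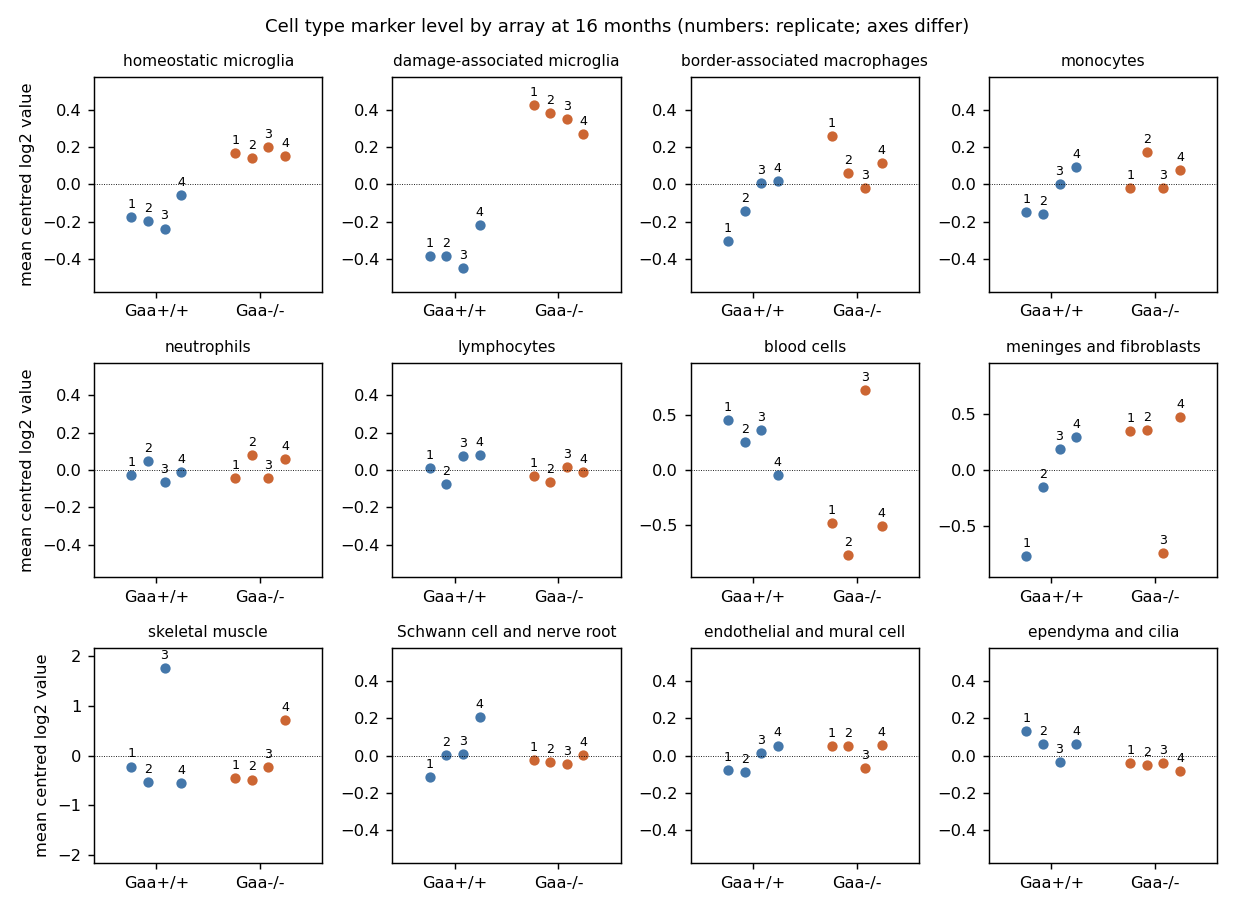
Average log2 value of the markers of 12 cell types or tissues in each 16-month array, relative to the mean of the 8 arrays, with Gaa+/+ in blue, Gaa-/- in orange and replicate numbers at the points; axes differ. Both microglial panels separate the genotypes, and the ependymal panel does so narrowly (-0.037 to 0.132 in Gaa+/+ and -0.082 to -0.04 in Gaa-/-). Muscle is high in Gaa+/+ replicate 3 (1.761) and Gaa-/- replicate 4 (0.717), and the meningeal panel is low in Gaa+/+ replicate 1 (-0.765) and Gaa-/- replicate 3 (-0.734).

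Lipid handling genes of phagocytes gave 5 higher calls of 18. The cholesterol exporter Abca1 read 7.26, 7.31, 7.18 and 7.48 in Gaa+/+ and 7.96, 7.98, 7.89 and 7.84 in Gaa-/- arrays (0.61 ± 0.08, limma adjusted p = 0.000276), with no overlap. The lipid droplet coat gene Plin2 rose by 0.55 ± 0.08, beside Fabp5, Npc2 and Apoe. The related exporter Abcg1 had a difference of -0.05.

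Astrocyte genes changed in part. Of 17 general astrocyte markers 3 rose: the water channel Aqp4 (0.50 ± 0.07), Aldh1l1 (0.42 ± 0.06) and Mlc1 (0.26 ± 0.05). Gfap, the intermediate filament of astrocytes, read 10.35, 10.41, 10.27 and 10.67 in Gaa+/+ and 10.61, 10.68, 10.69 and 10.53 in Gaa-/- arrays. Its groups overlapped through Gaa+/+ replicate 4, and the change of 0.20 ± 0.09 did not pass (limma adjusted p = 0.315, 95% interval 0.01 to 0.38). The glutamate transporters Slc1a2 (0.00) and Slc1a3 (0.06) were not called. Among 26 reactive astrocyte genes 9 rose, with a median of 0.372. Serpina3n, a secreted protease inhibitor of a family with close copies, read 10.45, 10.46, 10.42 and 10.55 against 11.07, 11.03, 11.10 and 11.03 (0.59 ± 0.05, adjusted p = 5.87e-06), with no overlap. The largest change was that of Cd109 (1.13 ± 0.19), followed by the filament gene Vim (0.95 ± 0.21, adjusted p = 0.0246), Osmr, the lipid receptor gene S1pr3 (0.81 ± 0.11) and the hyaluronan receptor gene Cd44 (0.71 ± 0.10). The call of Vim was lost when any 1 array but Gaa+/+ replicate 4 was omitted. Socs3 (0.62 ± 0.09) and Stat3 (0.37 ± 0.06), which act downstream of receptors such as Osmr, and Timp1 (0.55 ± 0.08) were called. Lcn2 (0.37, adjusted p = 0.699) was not. Vim, Cd44 and Timp1 are also expressed by meningeal cells, whose markers differed among the arrays as given above, and the part of those cells was not tested.

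**Figure D4:**
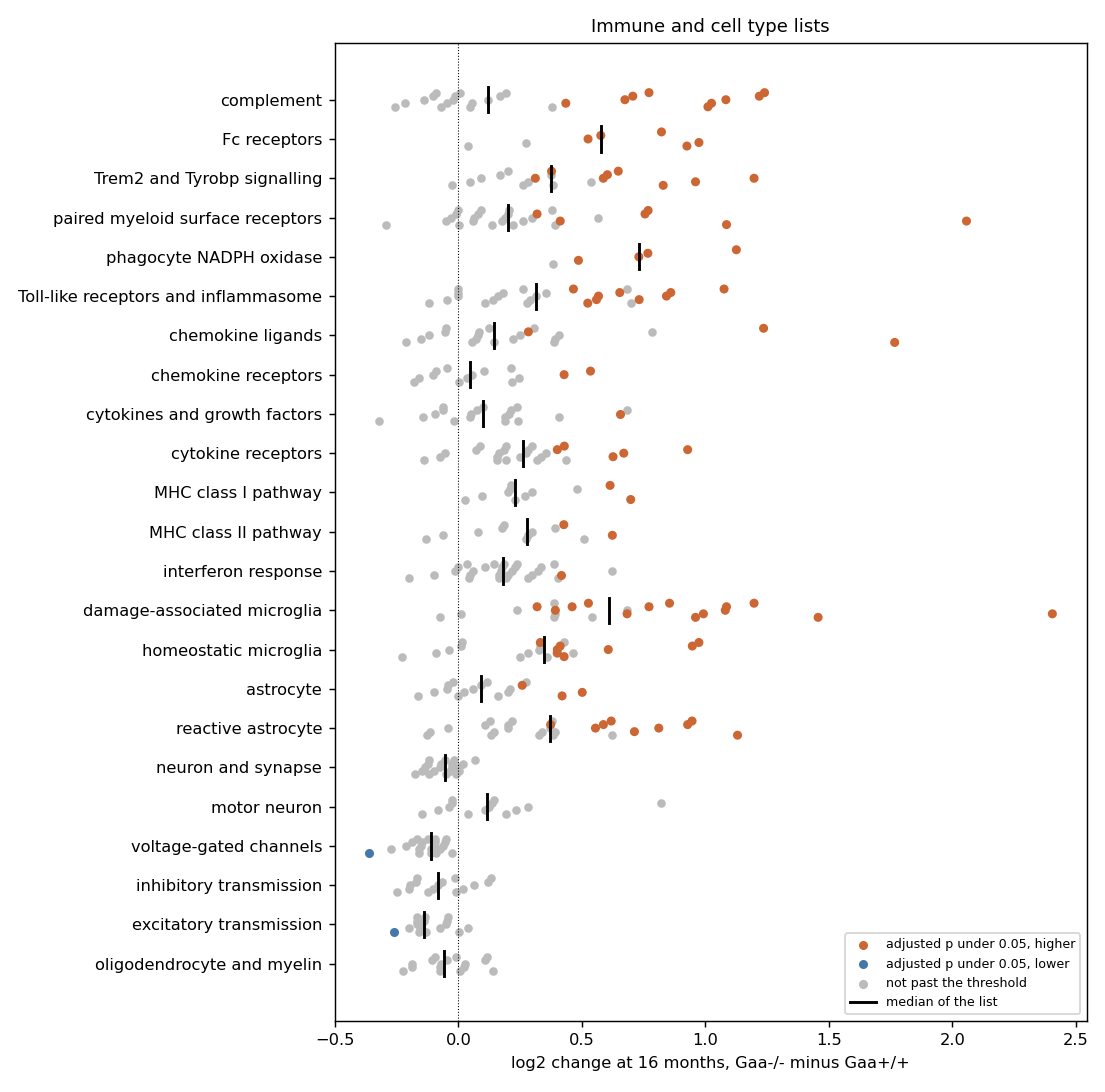
Log2 change at 16 months of each measured gene in 23 immune and cell type lists, with genes called higher in orange, called lower in blue, others in grey and the list median as a black bar. The oxidase, damage-associated and Fc receptor medians are 0.73, 0.611 and 0.576, whereas the neuron and synapse median is -0.0528 with 0 calls.

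General neuronal and motor neuron markers held 0 calls, against 1.96% of all genes. Lists this short can hold 0 calls at that share, so this does not show that neurons were unchanged. Of 20 general neuronal and synaptic genes 16 had a negative change, and the median was -0.0528. Of 14 motor neuron genes 5 had a negative change, and the median was 0.117. Chat, the acetylcholine synthesis gene of motor neurons, read 6.93, 6.67, 6.37 and 6.81 in Gaa+/+ and 6.60, 6.76, 7.06 and 6.50 in Gaa-/- arrays (0.04 ± 0.14, limma adjusted p = 0.935, 95% interval -0.27 to 0.34). Its groups overlapped, and its sign turned when Gaa-/- replicate 3 or Gaa+/+ replicate 3 was omitted.

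Among ion channels and transmitter receptors 2 genes fell, Cacna1g and Gria2. All 21 measured voltage-gated channel genes had a negative change, with a median of -0.113, and 1 of them was called. Cacna1g, a T-type calcium channel gene, read 6.69, 6.79, 6.95 and 6.82 in Gaa+/+ and 6.56, 6.42, 6.42 and 6.41 in Gaa-/- arrays, and fell by 0.36 on the log2 scale (SE 0.08, limma adjusted p = 0.0325). Its groups did not overlap, but the call was lost when Gaa-/- replicate 2, 3 or 4, or Gaa+/+ replicate 2, 3 or 4, was omitted. In the excitatory list 15 of 17 changes were negative, with a median of -0.138, and Gria2 was called. Gria2, the subunit that makes AMPA receptors impermeable to calcium, read 9.92, 9.94 and 9.94 in Gaa+/+ replicates 1, 3 and 4 and slightly more in replicate 2, against 9.70, 9.64, 9.57 and 9.86 in Gaa-/- arrays (-0.26 ± 0.06, adjusted p = 0.0388). Its call was lost when any 1 array but Gaa-/- replicate 4 was omitted. Of 15 inhibitory genes 0 passed. Their median was -0.0812, with 4 positive changes, and the lowest value was that of Gad1, the GABA synthesis gene (-0.25, adjusted p = 0.182). Over all genes, 49.3% of changes were positive.

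Other cell types of the cord had no calls, against 1.96% of all genes. This held for 16 oligodendrocyte and myelin genes (median -0.0601), 14 precursor genes (0.099), 19 endothelial and mural genes (0.00153), 18 ependymal genes (-0.155) and 10 Schwann cell genes (-0.0459). Ependymal markers averaged -0.037 to 0.132 in Gaa+/+ and -0.082 to -0.04 in Gaa-/- arrays, without overlap. Of their 18 changes 14 were negative, and the source of this was not tested. In the meningeal and muscle lists 0 genes were called, and the medians were 0.2 and -0.255. With so few genes in each list, 0 calls do not show that these cells were unchanged.

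Autophagy and cytosolic glycogen genes were compared because Gaa acts on glycogen delivered to the lysosome. Of 26 autophagy genes only Rb1cc1, a scaffold of the initiation complex, was called (3.85%, against 1.96% of all genes). It read 8.70, 8.69, 8.59 and 8.60 in Gaa+/+ and 8.34, 8.35, 8.28 and 8.42 in Gaa-/- arrays (-0.30 ± 0.05, limma adjusted p = 0.00668), and the groups did not overlap. The cargo receptor Sqstm1 had a difference of 0.05 and Map1lc3b, whose product marks autophagosomes, of 0.09. Of 21 glycogen genes only Gyg, the glycogenin that primes glycogen, was called (4.76% of the list). Gyg rose by 0.27 ± 0.06 (limma adjusted p = 0.0166). Its call was lost when Gaa-/- replicate 1 or Gaa+/+ replicate 1 was omitted. The synthase Gys1 had a difference of 0.10, the branching enzyme Gbe1 of 0.15 and the phosphorylases Pygb and Pygm of 0.05 and -0.17.

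In metabolic and stress lists the share of calls ranged from 0 to 13.6%, against 1.96% of all genes. In oxidative phosphorylation 0 of 25 genes and in endoplasmic reticulum stress 0 of 18 were called. Pfkl, a phosphofructokinase gene, was the only glycolytic gene of 18 to rise (0.22 ± 0.05). The call was lost when any 1 array but Gaa-/- replicate 3 or Gaa+/+ replicate 4 was omitted. Of 22 antioxidant genes 2 rose and 1 fell. Hmox1, which degrades haem, rose by 0.71 ± 0.11 and the metallothionein gene Mt1 by 0.22 ± 0.05, a call that Gaa-/- replicate 1, 2 or 3 or Gaa+/+ replicate 1 or 2 could each end when omitted. Sod1, the cytosolic superoxide dismutase, read 6.09, 6.13, 6.02 and 6.32 in Gaa+/+ and 5.76, 5.93, 5.78 and 5.64 in Gaa-/- arrays (-0.36 ± 0.08, limma adjusted p = 0.0336). Its groups did not overlap, but the call was lost when any 1 array but Gaa-/- replicate 2 or Gaa+/+ replicate 3 was omitted. The desaturase Scd1 was the only one of 19 fatty acid and sterol genes called (-0.31 ± 0.07, adjusted p = 0.043), and any array but Gaa-/- replicate 4 could end it when omitted. In the apoptosis list the death receptor Tnfrsf10b (0.56 ± 0.11) and Ccng1 (0.31 ± 0.07) were the called genes of 18, whereas the p53 target Cdkn1a had a difference of -0.10. Omitting any 1 array ended the call of Ccng1.

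Outside the lists 272 genes rose and 50 fell. Mpeg1, a pore-forming protein gene of macrophages, read 6.40, 6.37, 6.17 and 6.48 in Gaa+/+ and 7.85, 7.98, 7.76 and 7.80 in Gaa-/- arrays (1.49 ± 0.08, limma adjusted p = 7.59e-08). Apobec1, a cytidine deaminase that edits Apob RNA, read 5.66, 5.66, 5.42 and 5.93 against 7.22, 7.05, 7.02 and 6.99 (1.40 ± 0.11, adjusted p = 5.87e-06). Neither gene's groups overlapped. The aspartic protease gene Ctse rose by 1.34 ± 0.14, the annexin gene Anxa3 by 1.22 ± 0.20 and the endothelial proteoglycan gene Esm1 by 1.11 ± 0.20. Grn, which encodes the lysosomal protein progranulin, rose by 0.63 ± 0.09 and is named after its value was seen.

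Among genes that fell, Erdr1, which has close copies, read 11.18, 11.25, 11.03 and 11.23 against 10.24, 10.45, 9.96 and 10.62 (-0.85 ± 0.15, limma adjusted p = 0.00561), with no overlap. Itih3, an inhibitor heavy chain gene, changed by -0.38 ± 0.07, Sfmbt2 by -0.41 ± 0.09 and the receptor gene Lgr6 by -0.40 ± 0.10. Rpph1, an RNA component of an RNA-cutting enzyme, changed by -0.52 ± 0.11. The others were Nat8f3 (-0.36), the Notch modifier Lfng (-0.32), Wdr6 (-0.31), the exchange factor Mcf2l (-0.29) and the cilium gene Cfap69 (-0.28). Of the genes in this group, Erdr1 and Itih3 kept the call when any 1 array was omitted, and the other 8 did not.

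The same contrast at 6 months placed the older animals beside younger ones. At that age 23 genes passed (0.0992% of all, and 0.0906% higher), of which 21 were also called at 16 months in the same direction. Among genes called higher at 16 months, 369 of 399 (92.5%) had the same sign at 6 months, with a median of 0.185 there against 0.512. For lower genes it was 44 of 55 (80.0%), with -0.0497 against -0.339, and over all genes 56.3%. The genes were chosen on the 16-month values, so the smaller change at 6 months is a description. Tested as an interaction in limma, the genotype effect differed between ages in 1 gene (0.00431% of those tested), and 1477 had an unadjusted p under 0.05.

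That gene was Ccnd1, which encodes cyclin D1, a regulator of entry into the cell cycle. At 16 months it read 6.73, 6.59, 6.58 and 6.74 in Gaa+/+ and 7.68, 7.47, 7.38 and 7.48 in Gaa-/- arrays (0.84 ± 0.06, limma adjusted p = 4.03e-06), with no overlap. At 6 months its change was 0.06 (adjusted p = 0.999), and the difference between ages was 0.78 (adjusted p = 0.00614). With a fold minimum of 1.2 that p was 0.409, with the replicate number as a block 0.0807 and without the pair of arrays with high muscle markers 0.0755. At 6 months 2 of the 4 arrays in each genotype had low Xist and at 16 months 0 did. In a fit to the 12 arrays with high Xist, chosen after seeing the data, the difference in Ccnd1 was 0.74 and did not pass (adjusted p = 0.327). Ccnd2 rose by 0.77 ± 0.10 at 16 months, while 0 of 22 proliferation genes were called, against 1.96% of all genes. Of those, Mki67 had a difference of 0.47 (adjusted p = 0.0887), and its adjusted p was 0.0311 when Gaa-/- replicate 4 was omitted. The difference in Cxcl13 was 0.14 at 6 months and 1.77 at 16, but the gap of 1.63 between ages did not pass (adjusted p = 0.154). In the 12 high-Xist arrays Cxcl13 was the 1 gene whose difference passed (1.46 ± 0.14, adjusted p = 0.0131). For Gpnmb the values were 1.38 and 2.40 (gap 1.02, adjusted p = 0.0976).

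**Figure D5:**
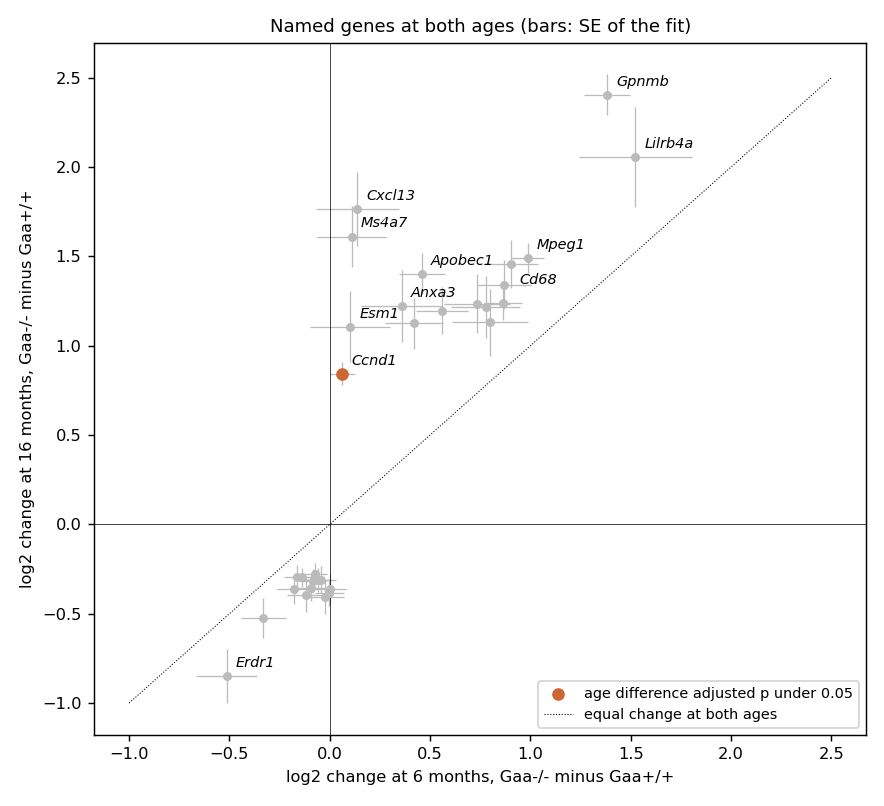
Log2 change at 6 months (x axis) against that at 16 months (y axis) for the genes named for the largest changes other than Gaa, with Ccnd1 and Ms4a7 added; bars are the SE and the dotted line marks equal change. Gpnmb (1.38 and 2.40) and Lilrb4a (1.52 and 2.06) had the highest changes at both ages, and Ccnd1 (0.06 and 0.84) is the only gene whose age difference passed the threshold with all 16 arrays.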

How the data were processed

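Total RNA of 16 cervical cords was hybridised to Affymetrix Mouse Gene 2.0 ST arrays after labelling with the Ambion WT Expression kit, per the labels. The deposited values are log2 expression per probe set, which the authors made with RMA and affy in R 2.15.1, per the submitters' processing notes; the build and the version of the probe grouping were not given in the sources used here. RMA sets all arrays to 1 distribution, so a shift common to all genes cannot be seen. Probe sets were named through the platform's gene numbers, and 23185 of 25206 had a RefSeq gene; the other 2021 were left out.

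All 16 arrays in 4 groups were fitted in limma 3.58.1 (R 4.3.3), with 12 residual degrees of freedom, and p-values are two-sided and Benjamini-Hochberg adjusted over all 23185 genes, with genes called at 0.05. Scan dates were not given, so batches could not be checked. Values in the text are mean differences ± SE on the log2 scale. Genes were named by rule: Gaa, the 15 largest changes in each direction among called genes with non-overlapping arrays and a brighter group at or above the median of 5.502, leaving out predicted genes and small RNAs, and up to 8 called members of each list. Others were added after values were seen: Tfeb, Tfe3, Mitf, Sqstm1, Lamp1, Lamp2, Gys1, Gfap, Vim, Chat, Tmem119, Sall1, Il1b, Tnf, Mki67, Ccnd2, Met, Grn, Naglu, Aga, Cpq, Masp1, Casp1 and Gad1, as were members not called that are given for contrast. The members and lists were chosen with earlier results of these data known. Of 977 listed genes 910 were measured.

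On simulated data the 16-month test recovered 35.8%, 83.6% and 97% of genes changed by 0.3, 0.6 and 1.2, with 9 false calls of 153. Alternatives covered normalization, filters on dim genes, array weights, the prior, the threshold, a fold minimum, the replicate block, the pair with high muscle markers, the promoter window and each array omitted. A fit to the arrays with high Xist was added after seeing the data.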

Additional observations from a re-analysis of the deposited data

Results flagged for a closer look

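In 15 of 332 sets of 4 arrays, 1 array stood apart from the other 3, with a gap to its nearest neighbour, as a share of the group's range (the gap ratio), above Dixon's critical value at the 95% level. Chance alone gives about 5% of such sets. In Gaa+/+, replicate 4 was highest for Laptm5 (gap ratio 0.868) and Man2b2 (0.955) and lowest for Rragd (0.913). Replicate 3 was lowest for Ly86 (0.925), the leukocyte phosphatase gene Ptprc (0.86) and Tlr3 (0.858). Replicate 1 was highest for Gys1 (0.853) and replicate 2 for Tlr2 (0.836). In Gaa-/-, replicate 4 was lowest for Tyrobp (0.846), Pld4 (0.916), Ifi30 (0.88) and the proliferation gene Mki67 (0.92). Replicate 1 was highest for Cacna1g (0.906) and Mcoln1 (0.832), and replicate 2 was lowest for Ly86 (0.919). Tyrobp read 7.24 in Gaa-/- replicate 4 against 7.66 to 7.73 in the other 3, all above the Gaa+/+ arrays.

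The genotype effect on Ccnd1 was larger at 16 than at 6 months by 0.78 on the log2 scale, by the interaction term of the limma fit (adjusted p = 0.00614). Within the 12 arrays with high Xist the adjusted p was 0.327.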

How the results depend on the processing

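The 454 called genes at 16 months (399 higher, 55 lower) became 72 (71 and 1) with a fold minimum of 1.2 and 242 (235 and 7) at a threshold of 0.01. The labels state no pairing by replicate number. Deviations from the group means, over all genes, correlated between same-numbered arrays at -0.00934, 0.103, 0.0279 and -0.109. Of these 4 numbers 1 matched best with itself. Such correlations cannot exclude a block that acts on part of the genes. With the replicate block the counts were 229 (214 and 15). The block ended every call in the lists of sulfatases, the proton pump, autophagy, glycogen metabolism, chemokine receptors and cytokines and growth factors. It did the same for the class II, voltage-gated channel, excitatory, glycolysis, and fatty acid and sterol lists. The lower genes numbered 117 with array weights, 99 with dim genes filtered at the median, 99 with a trend and robust prior, 35 with only the 16-month arrays and 36 without the pair with high muscle markers. Omitting 1 array of the 8 gave 294 to 488 called genes, with 275 to 414 higher and 19 to 74 lower. The age difference was called in 3 genes with array weights, 4 with the median filter, 5 with the trend and robust prior, 0 with the fold minimum, the block or the pair omitted, and 1 to 2 with 1 array omitted. Within the 12 high-Xist arrays, an alternative chosen after seeing the data, it was called in 1 gene, Cxcl13 and not Ccnd1. Chat, at 0.04, ranged from -0.073 to 0.117 and Tfe3, at 0.03, from -0.013 to 0.055 with 1 array omitted. The cause of these shifts was not tested. These were the only 2 of 167 named results that changed sign under any alternative run. Median centring (413 called) and repeated quantile normalization (452) each took the call from 14 of the 167. Other alternatives took more. The replicate block ended 61, omission of the pair with high muscle markers 44 and use of only the 16-month arrays 34. The threshold of 0.01 ended 56 and the fold minimum 104. In the last 100 bases before the start, 7.23% of the 6 lysosomal lists held TCACGTGA and 17.2% of their called genes. With 4 arrays a group, changes near 0.3 were mostly missed in the simulation, so a gene not called may still differ by that much.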

Other observations

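Several gene families held called genes, and all of the following were chosen after their values were seen. Their counts include genes of the lists above, such as Ms4a7, Cd9, Cd63, Lgals3 and Cst7. Over all genes 1.72% were called higher and 0.237% lower. Of 20 measured genes of the Ms4a family, membrane proteins of myeloid and other cells, 4 rose. Beside Ms4a7 they were Ms4a6d (0.95 ± 0.14), Ms4a6c (0.69 ± 0.10) and Ms4a14 (0.68 ± 0.13), and since members of this family resemble each other their signals may be mixed. Of 26 tetraspanins 6 rose, among them Cd53 (0.71 ± 0.09), Cd9 and Cd63. Of 10 galectins 3 rose and of 22 cystatins 3 rose. Of 3 D-type cyclins 2 rose, Ccnd1 and Ccnd2. The 41 Hox genes, which set position along the body axis, had 0 calls and a median of -0.0485.

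Further single genes were high in Gaa-/- cords. Adgre1, which encodes a surface marker of macrophages, rose by 0.95 ± 0.12, Mmp12, the macrophage elastase gene, by 0.84 ± 0.13 and the ferric reductase gene Cybrd1 by 0.95 ± 0.08. The inhibitory receptor genes Havcr2 and Lag3 rose by 0.83 ± 0.12 and 0.58 ± 0.13, and Pros1, a bridging protein gene for Mertk, by 0.71 ± 0.12. Agr3 rose by 1.25 ± 0.14. Among lower genes, Pcdha7, a protocadherin gene that shares sequence with its cluster, changed by -1.03 ± 0.23 and the chromatin protein gene Hmgn2 by -0.92 ± 0.21. Agr3 changed more than Esm1 (1.11), and Pcdha7 and Hmgn2 more than Erdr1 (-0.85), genes named by rule for their large changes. Agr3, Pcdha7 and Hmgn2 were not named by that rule, which requires non-overlapping arrays and a brighter group at or above the median. Each may therefore be dim or overlap between genotypes, and their array values are not given.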
